A study of Homo sapiens with 4 samples.

Results

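In 730 of the 26490 genes of the PAR-CLIP table, most of the reads crosslinked to the helicase DHX36 lay in introns. These genes were chosen by their own read counts: a gene had to hold at least 50 crosslinked reads, with at least 50% of them intronic, in FH-DHX36-E335A or in FH-DHX36. The FH-DHX36-E335A values chose 369 genes and the FH-DHX36 values 490. They shared 129 genes, which left 240 genes chosen in FH-DHX36-E335A alone and 361 in FH-DHX36 alone. The other 7385 genes with at least 50 reads in either PAR-CLIP served for comparison.

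DHX36 is a DEAH-box RNA helicase that binds and unwinds G-quadruplexes, structures in which runs of guanines stack into planar layers. Introns are transcribed and then removed by splicing in the nucleus, and most intron RNA is short-lived. Intronic reads in a PAR-CLIP can come from unspliced RNA, from a retained intron, or from a shorter RNA encoded inside the intron. In PAR-CLIP, 4-thiouridine is incorporated into RNA, ultraviolet light joins it to a bound protein, and the T-to-C conversions that this leaves mark crosslinked reads, which are then grouped into clusters.

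Both cell lines were HEK293, a line of human embryonic kidney origin, with a stable, tetracycline-inducible transgene carrying an HA-Flag tag. FH-DHX36-E335A was isoform 1 with the E335A change, which inactivates the helicase, and FH-DHX36 was isoform 2 without it, so the isoform and the mutation differed together and cannot be told apart. All 4 samples, 2 per cell line, were induced with 500 ng per ml tetracycline for 15 h, irradiated at 365 nm for 5 min and immunoprecipitated with an antibody against FLAG. The protein was overexpressed, and the table held 1 value per cell line with its replicates combined. No difference below could therefore be set against replicate spread, no test was run, and intervals cover counting error or the spread over genes only.

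The short sequences below are intronic matches to the G-run pattern in 5 named genes: at least 4 runs of at least 3 G, separated by 1 to 7 bases. They are shown because DHX36 is known for such sequences and because each of these genes holds at most 3 matches, few enough to print. Runs of at least 3 G are in capitals, all letters run 5′ to 3′ on the strand of the gene, and positions are on GRCh37. The sequence of TIMM8B, at chr11:111957339-111957359 on the minus strand, is the single match in the single intron of the gene. All 3 matches of EZH1 lie in intron 1, at chr17:40896988-40897008, chr17:40896840-40896864 and chr17:40896751-40896772 on the minus strand. The match of PHF10 lies in intron 1 at chr6:170123877-170123899 on the minus strand, that of CSNK2A2 in intron 5 at chr16:58204157-58204179 on the minus strand, and that of DROSHA, 1 of 2 in the gene, in intron 23 at chr5:31437452-31437472 on the minus strand. None of these 7 overlapped an exon of another transcript of its own gene. Other named genes met the same limit and are not printed. Among those, a match in each of DDX3X, FOXA1 and FCGR2B did overlap such an exon.
TIMM8B: GGGGacGGGGaGGGtgaaGGG
EZH1 a: GGGccGGGcggtGGGGccGGG
EZH1 b: GGGtGGGGGaatGGGGGcgacGGGG
EZH1 c: GGGGGcGGGctcGGGGacGGGG
PHF10: GGGcctGGGtgccGGGGcgtGGG
CSNK2A2: GGGcaGGGcacggaGGGGttGGG
DROSHA: GGGGGtGGGtGGGtGGGGGGG
The table gives no cluster positions, so a match describes the intron and is not a binding site. By comparison, 75.1% of the other genes with an intron held at least 1 match.

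The table held 8752127 crosslinked reads in FH-DHX36-E335A and 2160413 in FH-DHX36, a ratio of 4.05, so that 50 reads were a larger share of FH-DHX36. Introns held 391665 reads (4.48%) in 3926 clusters in FH-DHX36-E335A and 183817 reads (8.51%) in 1920 clusters in FH-DHX36. Of the 9 HEK293 marker genes, 6 had a cluster in each PAR-CLIP, against none of 7 markers of other cell types. The chosen genes were 4.67% of the 7899 genes with at least 50 reads in FH-DHX36-E335A and 11.0% of the 4464 in FH-DHX36. They held 54.1% of all intronic reads of FH-DHX36-E335A in 25.7% of its intronic clusters, and 71.3% of those of FH-DHX36 in 41.8% of its intronic clusters.

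A small part of the chosen genes held 50% of their intronic reads. In FH-DHX36-E335A, ERC1 alone held 29.6% of the intronic reads of the 369 genes, and 9 genes held 50% of them. In FH-DHX36 the leading gene, CCDC40, held 12.7%, and 31 genes were needed to reach 50%. Some leading genes had many intronic clusters, some had nearly all reads in a single intronic cluster, and others had large exonic signal beside the introns.

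ERC1, a scaffold of vesicle trafficking and the presynaptic active zone, had the most intronic clusters in both PAR-CLIPs. It held 62760 intronic reads of 62956 in FH-DHX36-E335A, in 48 intronic clusters of 53. In FH-DHX36 all 5437 reads lay in 27 intronic clusters. Its 18 introns span 495401 nt of chr12:1099675-1605099 and hold 15 matches to the G-run pattern, with exons of a lncRNA and of RN7SL852P inside them on the same strand. As a share of its PAR-CLIP, FH-DHX36 had 0.350 times the reads of FH-DHX36-E335A on ERC1 (95% counting interval, 0.340-0.360). LUC7L2, a splicing factor associated with the U1 snRNP, had 11317 intronic reads of 12036 in FH-DHX36-E335A, in 19 clusters. In FH-DHX36 it had 2512 of 2668, in 3 clusters. The intronic percentage was 94.0% and 94.2%, while the number of intronic clusters differed.

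Other genes of this kind were FBXL14, HSPA14 and CSNK2A2. FBXL14, an F-box protein of a ubiquitin ligase, had 5769 intronic reads of 6846 in 12 intronic clusters in FH-DHX36-E335A and 768 of 1296 in 5 in FH-DHX36. The one intron of its canonical transcript, 26062 nt long, held no match to the G-run pattern. HSPA14, an Hsp70-family chaperone, had 4951 of 5473 in 13 intronic clusters and 552 of 552 in 3, and an exon of the protein-coding gene MSANTD7 lies inside its introns on the same strand. CSNK2A2, a catalytic subunit of casein kinase 2, had 1833 of 2150 in 15 and 235 of 271 in 6, at 85.3% and 86.7% intronic. PHF10, a subunit of the PBAF chromatin remodeler, had 951 of 1356 in 16 intronic clusters in FH-DHX36-E335A and no cluster in FH-DHX36.

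In 3 genes a single intronic cluster held nearly all of a large read count in both PAR-CLIPs. CCDC40, a protein needed to assemble motile cilia, had 5420 reads in FH-DHX36-E335A and 16593 in FH-DHX36, each as 1 intronic cluster with no other cluster in the gene. CEP350, a centrosomal protein, had 4899 intronic reads of 5103 and 7977 of 7993, and the processed pseudogene RPSAP16 lies inside its introns on the same strand. TIMM8B, a small chaperone of mitochondrial protein import, had 6805 of 7497 and 4591 of 4652. As a share of the PAR-CLIP all 3 were higher in FH-DHX36, by 12.4-fold for CCDC40 (95% counting interval, 12.03-12.79), 6.35-fold for CEP350 (6.13-6.57) and 2.51-fold for TIMM8B (2.42-2.61). Reads carry no molecular identifiers, so copies of the same fragment count as separate reads. The counting intervals, here and for other genes, treat every read as independent and can be too narrow. The intron of TIMM8B is 1177 nt long, and exons of its other transcripts cover 344 nt of it. The deposited counts do not say whether the cluster lies there. FCGR2B, the inhibitory Fc gamma receptor of B cells, had all of its 1301 and 1848 reads in introns, while its RNA abundance was at the floor of the table. FCGR2B has near-identical neighbouring paralogs, so its reads are uncertain.

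**Figure D1:**
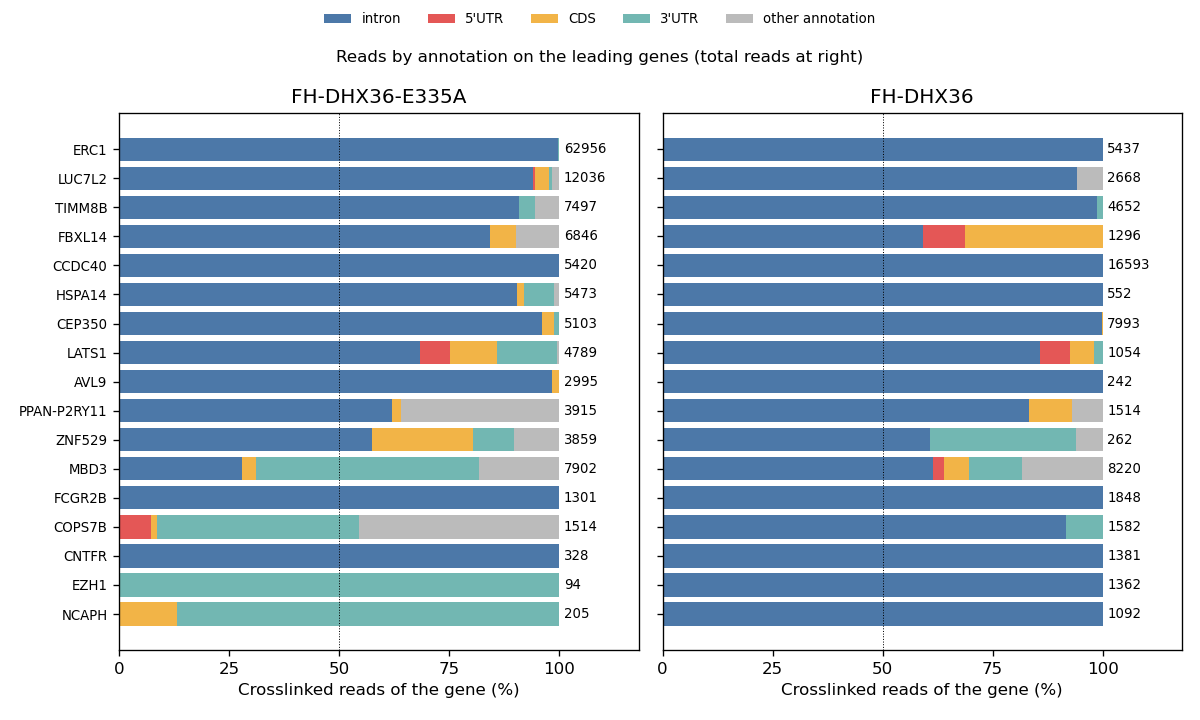
Percentage of crosslinked reads of each gene by annotation (horizontal axis, %) in FH-DHX36-E335A (left) and FH-DHX36 (right), for the genes with the most intronic reads in either PAR-CLIP; the number at the right of each bar is the total reads of the gene, and the dotted line marks 50%. ERC1 and CCDC40 were almost wholly intronic in both, whereas COPS7B, EZH1 and NCAPH were intronic in FH-DHX36 and had no intronic read in FH-DHX36-E335A.

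Some leading genes overlap other genes or carry large exonic signal. PPAN-P2RY11, a readthrough transcript that joins the ribosome biogenesis gene PPAN to the purinergic receptor gene P2RY11, had 2428 intronic reads of 3915 in FH-DHX36-E335A and 1259 of 1514 in FH-DHX36. Exons of PPAN and P2RY11 lie inside its introns on the same strand, so these reads cannot be told apart from exonic reads of those genes. MBD3, a subunit of the NuRD chromatin remodeler, had 11 intronic clusters in each PAR-CLIP, with 2206 intronic reads of 7902 (27.9%) in FH-DHX36-E335A and 5057 of 8220 (61.5%) in FH-DHX36. Its 3′UTR held 4011 reads in FH-DHX36-E335A and 990 in FH-DHX36. LATS1, a kinase of the Hippo pathway, had 3277 of 4789 and 904 of 1054 in introns, with CDS, 5′UTR and 3′UTR clusters in both.

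Most genes had few clusters. The median was 3 clusters (range, 1-53) for the 369 genes of FH-DHX36-E335A, against 6 (1-56) for the other 7530 genes with enough reads there. In FH-DHX36 it was 2 clusters (1-29) for the 490 genes and 2 (1-38) for the others. The chosen genes also had fewer reads, with a median of 193 against 444 in FH-DHX36-E335A and 126 against 200 in FH-DHX36. Numbers of clusters were not compared at equal reads. A single intronic cluster was present in 159 genes (43.1%) in FH-DHX36-E335A and 322 (65.7%) in FH-DHX36. From 2 to 4 were present in 163 and 157 genes, from 5 to 9 in 35 and 7, and at least 10 in 12 and 4. The only cluster of the gene was intronic in 63 genes (17.1%) in FH-DHX36-E335A and 190 (38.8%) in FH-DHX36. Among the other genes, 6.22% and 25.4% had a single cluster.

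The rule left room for exonic clusters, and many genes had one. An exonic cluster was present in 232 of the 369 genes (62.9%) in FH-DHX36-E335A and in 205 of the 490 (41.8%) in FH-DHX36, against 97.4% and 94.4% of the other genes. A 3′UTR cluster was present in 155 (42.0%) and 110 (22.4%), against 85.1% and 62.9%. Every read was intronic in 118 genes (32.0%) and 268 genes (54.7%). Since the rule used these counts, the differences from the other genes are descriptions of the choice.

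Intronic clusters of these genes were deeper than their exonic clusters. The median was 74 intronic reads per intronic cluster in FH-DHX36-E335A (95% interval over genes, 66-84; range, 17.3-6805) and 80 in FH-DHX36 (73-88; range, 22.5-16593). Exonic clusters of the same genes held a median of 30.3 and 36.4 reads, and intronic clusters were the deeper in 214 of the 232 and 185 of the 205 genes with both. In the other genes the order was the opposite, with 36 and 35 reads per intronic cluster and 70.6 and 76 per exonic cluster. The rule favours deep intronic clusters, so no test was made of this. It set no such order among genes with 1 cluster in all. There, however, the minimum of 50 reads is a floor on that cluster in both sets. The median was 89 reads (67-105) in the chosen genes and 91 (85-100) in the others in FH-DHX36-E335A. In FH-DHX36 it was 89 (79-96) and 94 (88-99), and the intervals overlapped in both. With 2 clusters in all, the chosen genes had 43.5 (38.5-55.5) and 49 (43.5-54.5) reads per cluster and the others 54 (50.5-58.5) and 66 (62-69.5). These intervals lay apart in FH-DHX36. With 3 clusters the chosen genes had 42.7 (35.7-52) and 61.3 (50.3-74.3), against 55 (51.7-58.3) and 67 (61-73.7), with intervals that overlapped. The rule separated the 2 sets by these same read counts, so the comparisons with 2 and 3 clusters are descriptions of the choice.

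**Figure D2:**
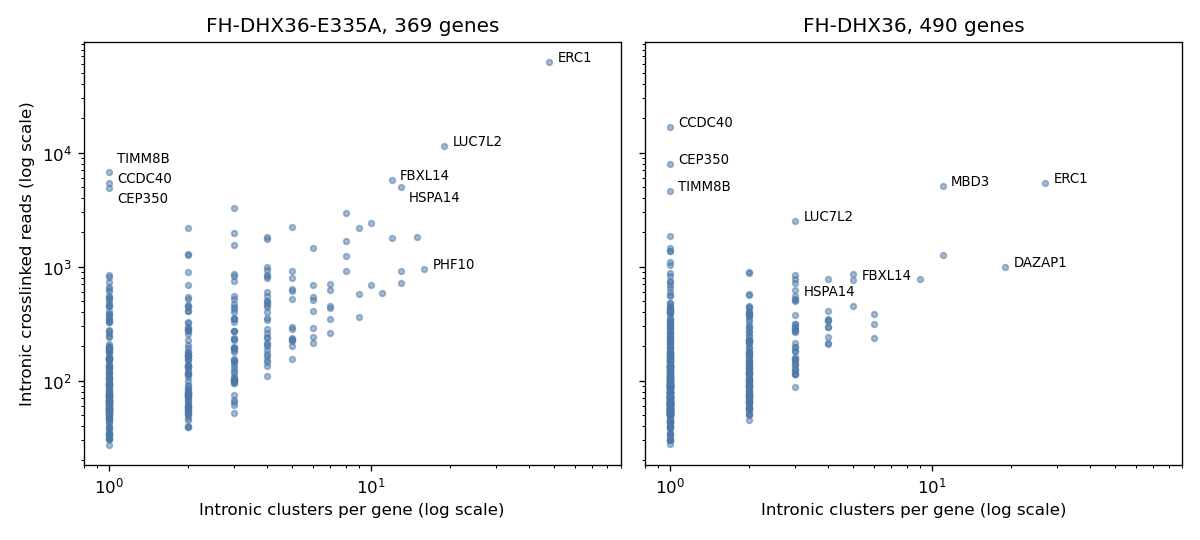
Intronic crosslinked reads (vertical axis, log scale) against intronic clusters per gene (horizontal axis, log scale), 1 point per chosen gene, in FH-DHX36-E335A (left, 369 genes) and FH-DHX36 (right, 490 genes). ERC1 lies at the upper right in both, with 48 and 27 clusters, and CCDC40, CEP350 and TIMM8B lie high above the other genes with 1 intronic cluster.

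Agreement of the PAR-CLIPs was read in the columns that had not chosen the genes. Of the 369 genes of FH-DHX36-E335A, 147 had no cluster in FH-DHX36, 50 had 1 to 49 reads there and 172 had at least 50. Of these 172, 129 were mainly intronic in FH-DHX36 too, or 75% (95% Wilson interval, 68.0-80.9), where 10.1% of all 4248 genes with at least 50 reads in both were. Their median intronic percentage in FH-DHX36 was 100% (96.6-100), and 19 had no intronic read there. Over the 129 genes, the median was 1 intronic and 0 exonic clusters in FH-DHX36, against 2 and 1 in FH-DHX36-E335A. The percentage in FH-DHX36, the shallower PAR-CLIP, thus rests on few clusters.

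The reverse share was lower. Of the 490 genes of FH-DHX36, 39 had no cluster in FH-DHX36-E335A, 23 had fewer than 50 reads and 428 had at least 50. Of these 428, 129 were mainly intronic in FH-DHX36-E335A, or 30.1% (26.0-34.6), where 4.05% of the 4248 genes were. An intronic cluster was present in FH-DHX36-E335A in 323 of the 428 (75.5%), against 29.4% of the 4248. The median intronic percentage there was 20.5% (16.0-25.9), and 105 genes (24.5%) had no intronic read. The 129 genes are the same in both directions, so both shares depend on how many genes each PAR-CLIP added.

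The share was highest among genes that were at least 90% intronic. Of genes with 50 to 75% intronic reads in FH-DHX36, 8.21% (4.65-14.1) were mainly intronic in FH-DHX36-E335A, of those with 75 to 90%, 22.2% (13.7-33.9), and of those with at least 90%, 45% (38.7-51.5). In the other direction the shares were 68.4% (57.5-77.6), 68.4% (52.5-80.9) and 89.1% (78.2-94.9). By depth the intervals overlapped: 25.9% (19.7-33.3) of genes with 50 to 100 reads in FH-DHX36 and 35.7% (28.6-43.4) of those with at least 200 were mainly intronic in FH-DHX36-E335A.

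**Figure D3:**
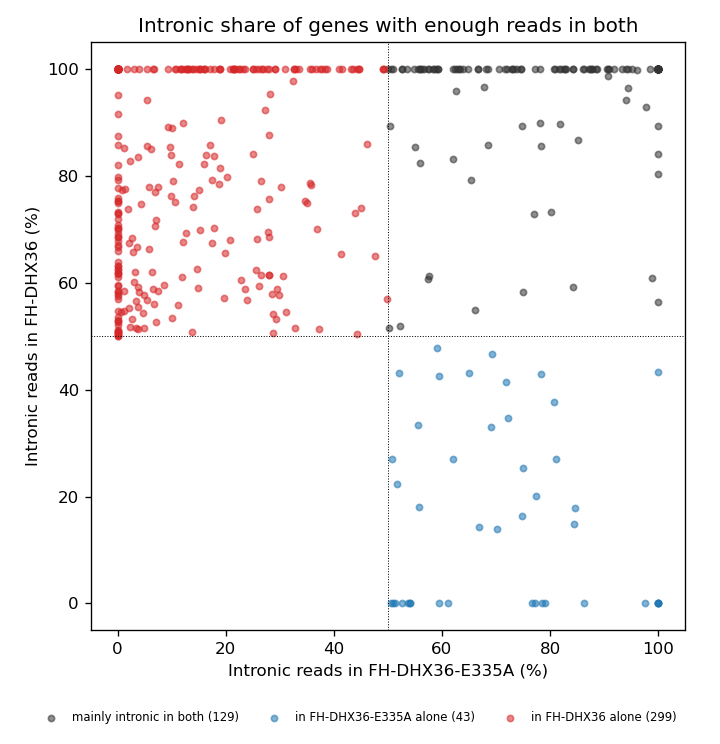
Intronic percentage of crosslinked reads in FH-DHX36 (vertical axis) against FH-DHX36-E335A (horizontal axis), 1 point per chosen gene with at least 50 reads in both; dotted lines mark 50%. The 129 genes mainly intronic in both fill the upper right, 299 lie at the upper left and 43 at the lower right, and the lower left is empty because such genes were not chosen.

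In 161 genes with enough reads in both, the reads were mainly intronic in FH-DHX36 and under 10% intronic in FH-DHX36-E335A. WAC, an adaptor with a WW domain that acts with the ligase of histone H2B ubiquitination, had 835 intronic reads of 1346 in FH-DHX36 and 459 of 14177 in FH-DHX36-E335A, where the 3′UTR held 11440. COPS7B, a subunit of the COP9 signalosome, had 1449 of 1582 in FH-DHX36. In FH-DHX36-E335A none of its 1514 reads was intronic, while 694 lay in the 3′UTR and 689 under an annotation outside the 4 categories of the table. DAZAP1, an RNA-binding protein, had 19 intronic clusters with 982 of 1863 reads in FH-DHX36 and 8 with 336 of 4732 in FH-DHX36-E335A.

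EZH1 and NCAPH had few reads of any kind in FH-DHX36-E335A. EZH1, a histone methyltransferase of Polycomb repressive complex 2, had 1 intronic cluster of 1362 reads in FH-DHX36 and 1 cluster of 94 reads, in the 3′UTR, in FH-DHX36-E335A. As a share of its PAR-CLIP, it was 58.7-fold higher in FH-DHX36 (95% counting interval, 47.6-73.1). NCAPH, a condensin subunit, had 1092 intronic reads in 1 cluster in FH-DHX36 and 205 reads, none intronic, in FH-DHX36-E335A.

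The reverse pattern was found in 19 genes. ACBD5, which tethers peroxisomes to the endoplasmic reticulum, had 632 intronic reads of 1240 in FH-DHX36-E335A and none of 56 in FH-DHX36. FOXA1, a pioneer transcription factor, had 478 of 910 and none of 79. PHF19, an accessory subunit of Polycomb repressive complex 2, had 449 of 449 in 1 cluster and none of 105. PRKCSH, the beta subunit of glucosidase II, had 386 of 504 and none of 86, and RBAK-RBAKDN, a readthrough transcript, 697 of 715 and none of 114. Exons of RBAK and RBAKDN lie inside introns of the readthrough transcript on the same strand, so these reads cannot be told apart from reads of those genes.

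Summed reads showed which annotation differed between the PAR-CLIPs in each class. Over the 129 genes mainly intronic in both, FH-DHX36-E335A held 2.35 times the intronic reads of FH-DHX36 and 6.89 times the exonic reads, against 4.05 over all reads of the table. The intronic ratio rests on single genes: it was 1.57 without ERC1 and 3.00 without CCDC40, the lowest and highest on leaving out each of the 129 genes in turn, while the exonic ratio lay between 6.46 and 8.65. The 3777 genes with enough reads in both and mainly intronic in neither had ratios of 2.75 and 3.43. Over the 299 genes mainly intronic in FH-DHX36 alone, the intronic ratio was 0.542 and the exonic ratio 12.4, with 131973 3′UTR reads in FH-DHX36-E335A and 8244 in FH-DHX36. Over the 43 genes mainly intronic in FH-DHX36-E335A alone, the intronic ratio was 5.80 and the exonic ratio 1.00. In these last classes the choice itself fixes which ratio is the higher. CSNK1E, a casein kinase at the abundance floor, and ZXDC, a zinc finger protein, were of the class of FH-DHX36 alone, with 676 intronic reads of 3447 against 778 of 1362, and 1063 of 2957 against 516 of 516.

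**Figure D4:**
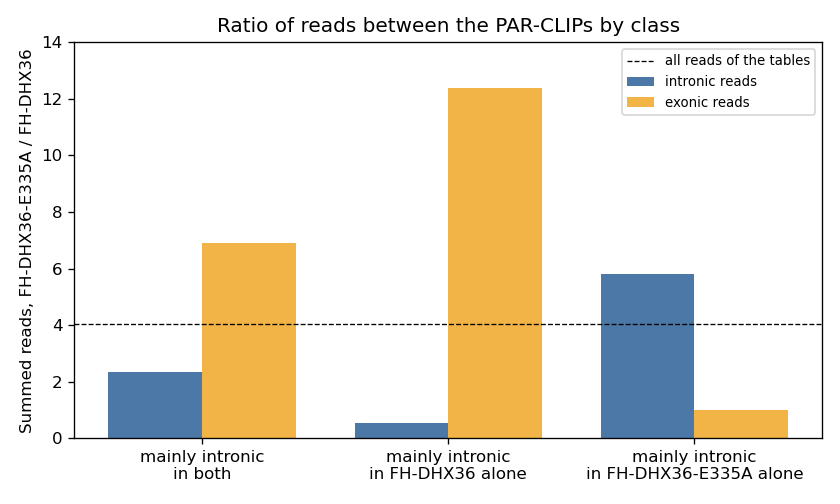
Summed crosslinked reads in FH-DHX36-E335A divided by those in FH-DHX36 (vertical axis, linear from 0) for intronic and exonic reads, in 3 classes of chosen genes with at least 50 reads in both; the dashed line is the ratio over the whole table, 4.05. The exonic ratio was above the intronic ratio in the first and second classes, at 6.89 against 2.35 and 12.4 against 0.542, and below it in the last, at 1.00 against 5.80. Without ERC1 the intronic ratio of the first class was 1.57.

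The correlation of reads between the PAR-CLIPs was computed across genes and is a description, since the rule used the same read columns and chose most of these genes in one PAR-CLIP alone. Spearman's rho was 0.47 (95% interval, 0.40-0.53) over the 544 chosen genes with a cluster in both, and 0.63 (0.61-0.64) over 4974 other genes. For NXPM, the authors' score of reads over mRNA abundance, it was 0.75 and 0.80. For intronic reads alone, it was 0.24 over 396 chosen genes with intronic clusters in both and 0.24 over 394 others. Over the 129 genes mainly intronic in both it was 0.38 (0.22-0.52), and 0.37 without ERC1. Genes are not independent replicates, and those of 1 PAR-CLIP share its libraries.

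As a share of the reads of the PAR-CLIP, 254 of the 730 genes (34.8%) were at least 2-fold higher in FH-DHX36, where 17.0% of the 8115 genes with enough reads in either were. In FH-DHX36-E335A 222 (30.4%) were higher, against 50.6% of the 8115. Of the 222, 147 had no cluster in FH-DHX36, the shallower PAR-CLIP, as had 2485 of the 4104 genes higher in FH-DHX36-E335A in all. Of the 254, 39 had no cluster in FH-DHX36-E335A, as had 112 of the 1382 genes higher in FH-DHX36 in all. With clusters in both, 215 chosen genes were higher in FH-DHX36 and 75 in FH-DHX36-E335A. Over all 8115 genes these counts were 1270 and 1619. These counts follow from the choice in part, since a gene chosen in FH-DHX36 needed 50 reads in the shallower PAR-CLIP. Among the 129 genes mainly intronic in both, 63 (48.8%) were higher in FH-DHX36 and 14 (10.9%) in FH-DHX36-E335A. Over the 4248 genes with enough reads in both these shares were 26.3% and 21.7%.

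The chosen genes were long. Of the 730 genes, 726 were matched to the annotation, and their summed intron length had a median of 53432.5 nt (95% interval, 46982-61075), against 24952.5 nt (24011-25902) in the other genes. The share of chosen genes rose over the quartiles of intron length, from 4.45% through 6.43% and 8.95% to 16.1%. They had a median of 11 introns against 8, and their exons were longer by less, at 4114.5 against 3559 nt. Intron length was not used by the rule, although a longer intron offers more sequence in which a cluster can fall.

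The median RNA abundance of the chosen genes was lower than that of the other genes, though not clearly in every class. The abundance recovered from reads and NXPM had a median of 4.88 FPKM (4.36-5.43) against 6.72 (6.42-7.01), leaving out 12 and 26 genes at the floor. By class it was 5.21 (3.95-6.50) in both, 3.34 (2.93-4.11) in FH-DHX36-E335A alone and 6.05 (4.98-6.85) in FH-DHX36 alone. Only the interval of FH-DHX36-E335A alone lay apart from that of the other genes. Over the quartiles of abundance, from lowest to highest, the share of chosen genes was 11.7%, 9.41%, 8.72% and 5.70%. In the lowest quartile 7.23% of genes were mainly intronic in FH-DHX36-E335A and 6.78% in FH-DHX36, and in the highest 2.53% and 4.16%. Among the leading genes, TIMM8B had 537 FPKM, LUC7L2 21.6, CEP350 2.13 and CCDC40 0.743.

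**Figure D5:**
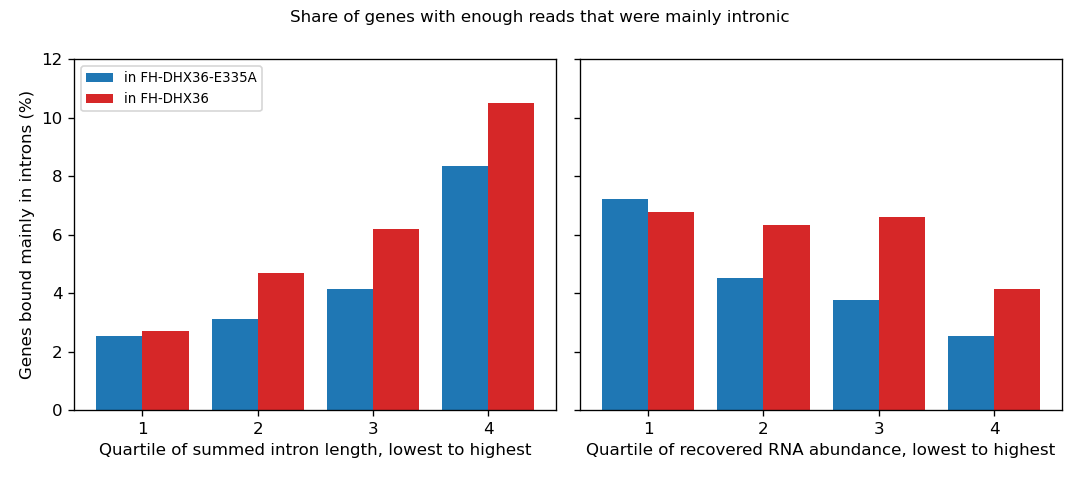
Genes mainly intronic in FH-DHX36-E335A and in FH-DHX36 (vertical axis, % of matched genes with enough reads in either PAR-CLIP, from 0), by quartile of summed intron length (left) and of recovered RNA abundance (right). The bars rise from 2.52% and 2.72% to 8.35% and 10.5% with intron length and are lowest in the highest quartile of abundance, at 2.53% and 4.16%.

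The median density of the G-run pattern was close in both sets, with intervals that overlapped on either strand. The median gene had 0.446 matches per 10 kb of intron (0.396-0.503) against 0.480 (0.457-0.4995) in the other genes. By class it was 0.354 (0.275-0.493) in both, 0.401 (0.342-0.511) in FH-DHX36-E335A alone and 0.516 (0.441-0.667) in FH-DHX36 alone. Over pooled introns the density was 0.589 against 0.691. On the antisense strand the median gene had 0.447 (0.396-0.488) against 0.402 (0.387-0.420). No match was found in 110 chosen genes (15.2%) and in 24.9% of the others, whose introns were shorter. FBXL14, LATS1, ZNF529, ACBD5, PNISR and TXNDC9 were among the genes with no match. No match says only that these letters are absent from the introns of the canonical transcript. Intron GC content had a median of 42.2% (41.6-42.9) against 43.1% (42.9-43.3).

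Another gene often lay inside the introns. In 259 chosen genes (35.7%) an intron held an exon of another gene on the same strand, against 21.0% of the others. A pseudogene was present in 12.3% against 5.17%, a miRNA gene in 9.37% against 4.29%, and a snoRNA or scaRNA gene in 4.41% against 2.66%. Within quartiles of intron length the shares with any gene were closer in the upper ones, at 53.2% against 46.2% in the highest and 26.0% against 22.9% in the quartile below it, and 15.6% against 5.27% in the lowest. Whether the intronic clusters lie on those genes was not tested.

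Among fixed gene lists, most members with enough reads were not mainly intronic. Of 32 genes of splicing regulation, 2 were: LUC7L2 and PNISR, an SR-related protein with 879 intronic reads of 1069 in FH-DHX36 and 101 of 630 in FH-DHX36-E335A. Of 10 hosts and processors of small RNAs, only DROSHA was, the nuclear nuclease of miRNA processing, with 569 of 582 in FH-DHX36 and 39 of 120 in FH-DHX36-E335A. Of 9 centrosome genes, CEP350 and CEP290 were, and CEP290 had 148 of 148 in FH-DHX36 and none of 30.

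Of 26 chromatin regulators, 4 were chosen. EZH1 is described above, and EZH2, the other methyltransferase of the complex, had 273 of 273 intronic reads in FH-DHX36 and 64 of 299 in FH-DHX36-E335A. CHD1, a chromatin remodeler, had 58 of 115 and none of 588. KDM5B, a histone H3K4 demethylase, was chosen in FH-DHX36-E335A, with 84 of 110, and had no cluster in FH-DHX36. Of 16 RNA helicases, DDX3X and DHX34 were chosen: DDX3X had 113 of 214 in FH-DHX36 and none of 3049 in FH-DHX36-E335A, and DHX34 137 of 137 in FH-DHX36-E335A and 18 of 18 in FH-DHX36. Of 8 genes of trafficking and the cell cortex, ERC1, RIMS2 and CLASP1 were. RIMS2, an active zone scaffold, had 133 reads and CLASP1, which binds microtubule ends, 262, all intronic in FH-DHX36, and neither had a cluster in FH-DHX36-E335A. The share over all 8115 genes was 9%, and the lists were too short for a share of their own to be read.

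Many genes lay close to the limit of 50%. In FH-DHX36-E335A, MLH3, a mismatch repair protein, was just inside with 80 intronic reads of 160, as was TXNDC9 with 27 of 54, and ROR1, a receptor tyrosine kinase-like protein, was just outside with 189 of 380. SLC25A37, a mitochondrial iron transporter, was just outside with 741 of 1486 and was chosen by FH-DHX36, with 114 of 200. In FH-DHX36, RAB40C with 49 of 98 and CEP85 with 40 of 80 were inside, and TMEM181 with 63 of 127 and TIMM44 with 50 of 101 outside. Between 45 and 55%, 39 genes lay below the limit and 38 at or above it in FH-DHX36-E335A, and 26 and 37 in FH-DHX36.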

How the data were processed

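Each of the 2 HEK293 lines was profiled by PAR-CLIP with 2 replicates. The authors mapped reads to hg19, used PARalyzer (within PARpipe, defaults) to call clusters and assigned them to categories with GENCODE v19. The submitters' processing notes name bcl2fastq 2.17.1, and the aligner is not given in the sources used here. Counts of clusters and of crosslinked reads per gene and category were deposited by the authors without normalization, as 1 value per cell line. The deposited NXPM is a score in which scaled reads are divided by mRNA abundance. Whether the table holds the intersection of the replicates is not given.

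Each gene was assigned by its reads (at least 50) and intronic percentage (at least 50). Members, gene lists and the rule for named genes were chosen with earlier results of these data known. Named were the 12 genes with the most intronic reads and the 5 with the most intronic clusters per PAR-CLIP, the 5 with the most reads mainly intronic in one and under 10% in the other, those nearest the limit, and members of fixed lists. RNA abundance was recovered as scaled reads over NXPM minus 0.001. Introns came from canonical transcripts of GENCODE v44 on GRCh37, and symbols were matched directly or through synonyms. The pattern, on the sense strand without overlaps, was searched with Python 3.11.15 and pysam 0.24.0. Its search and the rule were tested on simulated data. Proportions have 95% Wilson intervals, medians order-statistic intervals over genes, folds exact counting intervals, and correlations intervals from Fisher's transformation. Reads carry no molecular identifiers, so copies of the same fragment could not be removed. The counting intervals of the folds treat each read as independent and can be too narrow. Of the identifiers, 203 lines were duplicated, none of them a chosen gene. Alternatives were another read minimum, intronic limit, denominator, scale, gene model and pattern.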

Additional observations from a re-analysis of the deposited data

How the results depend on the processing

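No paired analysis was possible because the table combines the replicates of each cell line, and for the same reason no replicate could be left out. The number of chosen genes was 477 with at least 100 reads and 486 with at least 75% intronic reads, against 730, and rose to 1048 with at least 20 reads and 835 with the share taken over the 4 annotation categories. The median number of clusters in FH-DHX36-E335A was 4 with at least 100 reads and 2 at 75%, against 3, and that in FH-DHX36 was 1 at 75%, against 2. Intronic reads per cluster were 113 in FH-DHX36-E335A and 120 in FH-DHX36 with at least 100 reads. At 75%, 23.8% of genes chosen in FH-DHX36 were mainly intronic in FH-DHX36-E335A too, and the correlation of reads was 0.39. On NXPM, whose divisor is shared by the PAR-CLIPs, the correlation was 0.75. At least 4-fold higher were 154 genes in FH-DHX36 and 161 in FH-DHX36-E335A, against 254 and 222 at 2-fold. The 161 include 147 genes with no cluster in FH-DHX36, and the 154 include 39 with none in FH-DHX36-E335A. Such genes pass any fold, and the turned order of the directions rests on them. The share over all genes was not computed at 4-fold. With runs of at least 2 G the pattern was found 17.7 times per 10 kb, against 18.9 in the other genes.

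Leaving out each gene of a class in turn, for the ratios of summed reads, was chosen after seeing the data. Another alternative chosen after seeing the data scaled the minimum in FH-DHX36-E335A to its depth, at 203 reads. It gave 577 genes, a median of 5 clusters and 146 reads per cluster in FH-DHX36-E335A, and shares of agreement of 77.1% and 28.6%. Mainly intronic were then 3.13% of 3775 genes with enough reads in both in FH-DHX36-E335A and 8.42% in FH-DHX36. With no replicates, none of these shifts can be set against experimental error.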

Other observations

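Many intronic reads lay outside the chosen genes, some of them in well-covered genes that were under 50% intronic in both PAR-CLIPs. The gene C16orf72 had 4073 intronic reads of 8687 (46.9%) in FH-DHX36-E335A, in 33 intronic clusters of 50, and 532 of 1686 in FH-DHX36. AKIRIN2, a nuclear factor in proteasome import, had 3900 of 8323 in 18 intronic clusters and 293 of 1275. U2AF1, a subunit of the splicing factor that recognizes the 3′ splice site, had 1863 of 11234 and none of 2687. IER2, an immediate early gene, had 1644 of 4702 in FH-DHX36-E335A and 1018 of 2466 in FH-DHX36. These genes were picked after their values were seen, for their intronic reads.

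By chromosome, the chosen genes were between 5.78% of genes with enough reads on chromosome 12, which holds ERC1 and FBXL14, and 12.2% on chromosome 7, which holds LUC7L2 and AVL9. AVL9 had 2947 intronic reads of 2995 in FH-DHX36-E335A and 242 of 242 in FH-DHX36. The 13 genes of the mitochondrial genome have no introns and could not be among them.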
